A study of Mus musculus with 4 samples.

Results

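Brown and beige adipocytes burn fuel to make heat, and a small set of effector genes is linked to that work. The 9 genes described here (Cidea, Elovl3, Cox8b, Cox7a1, Dio2, Otop1, Fabp3, Kcnk3 and Slc27a2) were taken from a list by symbol, and all 9 had a value among the 13677 genes of the deposited tables. Expression was measured by RNA sequencing of mouse inguinal white fat, which lies under the skin. There were 2 libraries labelled FLCNKO, whose genotype is given as FLCN adipKO, and 2 labelled WT; Flcn encodes the tumour suppressor folliculin. The labels give no strain, age, sex, housing temperature, treatment or promoter driving the deletion. They also do not tie a library to 1 animal, so every p-value here rests on the spread among these 4 libraries, which may be technical. The title of the series places the comparison in the browning of white fat, the gain of heat-producing traits. All values are the authors' log2 values, in which 1 unit is a doubling. They are not scaled by gene length, so levels are compared between libraries and never between genes, and the sequencing depth behind them is unknown. Flcn itself had 12.35 and 12.12 in the FLCNKO-labelled libraries and 12.36 and 12.21 in WT. This gene-level value checks no label, because the labels do not say which exons were deleted and other cell types of the tissue express it. FLCNKO-labelled replicate 2 stood apart in its low skeletal muscle markers, so differences without single libraries are given as well.

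In a brown or beige adipocyte, fatty acids are released from small lipid droplets, carried into mitochondria and oxidised, and the respiratory chain runs fast because its proton gradient is short-circuited. Sympathetic signals through cyclic AMP and locally made thyroid hormone switch this programme on. The 9 genes are linked to several parts of it, and not each of them makes heat. Cidea encodes a lipid droplet protein, Elovl3 an enzyme that lengthens fatty acids, Fabp3 a fatty acid carrier and Slc27a2 an acyl-CoA synthetase that takes up very long fatty acids. Cox8b and Cox7a1 encode tissue-restricted subunits of cytochrome c oxidase, Dio2 the deiodinase that activates thyroid hormone, Otop1 a proton channel and Kcnk3 a potassium leak channel.

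Start-site windows are shown for the pair of members that passed the test, Cox8b and Otop1, for Fabp3, which had the largest difference, and for Dio2, the member whose groups overlapped. Each is the 250 bases before the annotated start, 5′ to 3′ on the strand of the gene, from RefSeq on GRCm38.p6. The deposited values rest on mm9, so these positions are not those of the authors' files. The windows are chr7:140900447-140900696 on the minus strand for Cox8b, chr5:38277154-38277403 on the plus strand for Otop1, chr4:130308488-130308737 on the plus strand for Fabp3 and chr12:90739039-90739288 on the minus strand for Dio2. Capitals mark a match to a searched motif.
Cox8b: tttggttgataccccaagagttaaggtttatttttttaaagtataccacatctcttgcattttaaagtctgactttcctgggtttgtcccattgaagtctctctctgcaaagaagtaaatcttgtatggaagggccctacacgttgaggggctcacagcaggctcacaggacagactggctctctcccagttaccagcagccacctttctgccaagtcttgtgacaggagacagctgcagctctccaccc
Otop1: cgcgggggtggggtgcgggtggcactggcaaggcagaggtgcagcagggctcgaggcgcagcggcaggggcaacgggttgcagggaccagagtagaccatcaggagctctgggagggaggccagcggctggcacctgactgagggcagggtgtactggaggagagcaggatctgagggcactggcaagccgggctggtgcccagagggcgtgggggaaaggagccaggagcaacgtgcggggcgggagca
Fabp3: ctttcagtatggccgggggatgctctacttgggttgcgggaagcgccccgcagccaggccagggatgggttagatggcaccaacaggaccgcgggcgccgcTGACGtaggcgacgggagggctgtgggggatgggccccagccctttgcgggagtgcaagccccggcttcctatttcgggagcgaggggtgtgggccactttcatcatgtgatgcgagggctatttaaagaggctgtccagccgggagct
Dio2: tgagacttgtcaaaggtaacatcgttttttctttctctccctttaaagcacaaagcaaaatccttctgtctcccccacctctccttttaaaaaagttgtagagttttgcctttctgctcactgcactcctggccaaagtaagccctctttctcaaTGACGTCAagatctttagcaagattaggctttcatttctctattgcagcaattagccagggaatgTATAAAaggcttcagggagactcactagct

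The motifs were searched on both strands in the 250 bases before and 50 bases after the start. This was done for 6 of the 9 members and in 32851 such windows of all genes. Motifs of Cidea, Elovl3 and Kcnk3 are not reported here. The cyclic AMP element TGACGTCA lay in the Dio2 window at bases -95 to -88, and 1.79% of all windows hold it. Dio2 also had the TATA box TATAAA at bases -30 to -25, which 13.6% of windows hold. Cox8b had a TATAAA only after its annotated start, at bases 5 to 10. The shorter TGACG, which lies within TGACGTCA, was found in Fabp3 at bases -149 to -145 and occurs in 20.8% of windows. Slc27a2 had the nuclear receptor hexamer AGGTCA on the opposite strand at bases -220 to -215, against 16.3% of windows. No match was found among these 6 members for TCAAGGTCA, the element of oestrogen-related receptors (0.423% of windows), which itself contains AGGTCA. The same holds for 2 copies of AGGTCA with 1 base between them (0.0396%) and for CACGTG, the E-box bound by the MiT/TFE factors (7.15%). Cox7a1 and Otop1 had no match to any motif searched.

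Of the 9 genes, Cox8b and Otop1 rose in the FLCNKO-labelled libraries (limma, adjusted p under 0.05 over all genes) and 0 fell. Among all genes, 0.98% were called higher and 0.614% lower. At an unadjusted p under 0.05, 8 of the 9 were higher and 0 lower, against 12.1% of all genes higher. The median log2 difference of the 9, FLCNKO minus WT, was 3.08, against 0.00 over all genes. The 9 were chosen with earlier results of these data known, so their counts and median are no separate evidence. Both FLCNKO-labelled libraries lay above both WT libraries for 8 of the 9, all but Dio2, and for 29.2% of all genes. When any 1 of the 4 libraries was left out, limma called 0 of all 13677 genes and so 0 of the 9. At an unadjusted p under 0.05, 7 or 8 of the 9 were then higher, against between 756 and 1733 of all genes. The log2 differences of the 8 then lay between 0.74 (Kcnk3) and 8.17 (Fabp3).

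**Figure D1:**
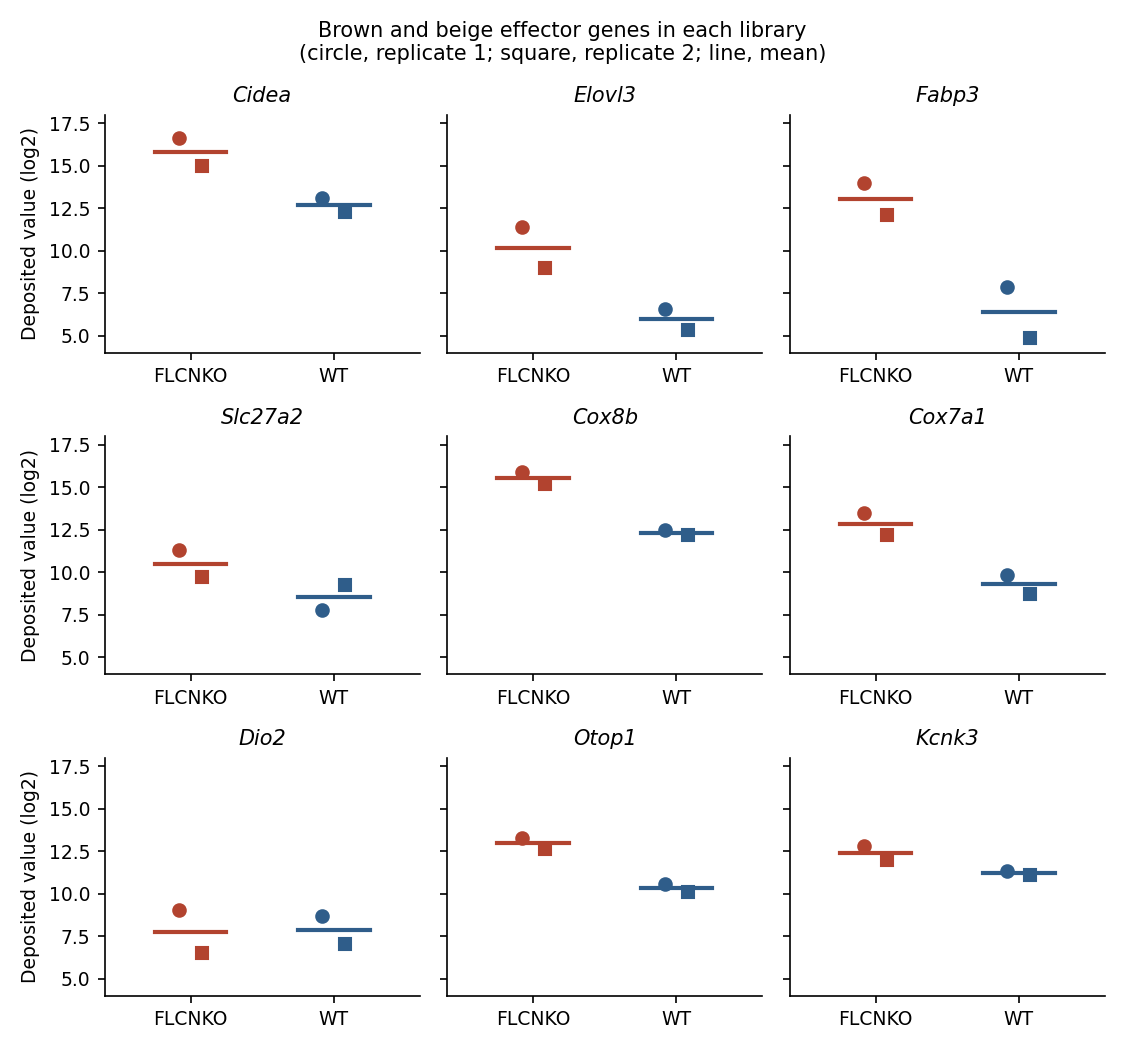
Deposited log2 value of each of the 9 effector genes in the 2 FLCNKO-labelled and the 2 WT libraries. Circles are replicate 1, squares replicate 2 and lines group means (n = 2). The groups stand apart in every panel except that of Dio2, where each group spans more than 1 unit.

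**Figure D2:**
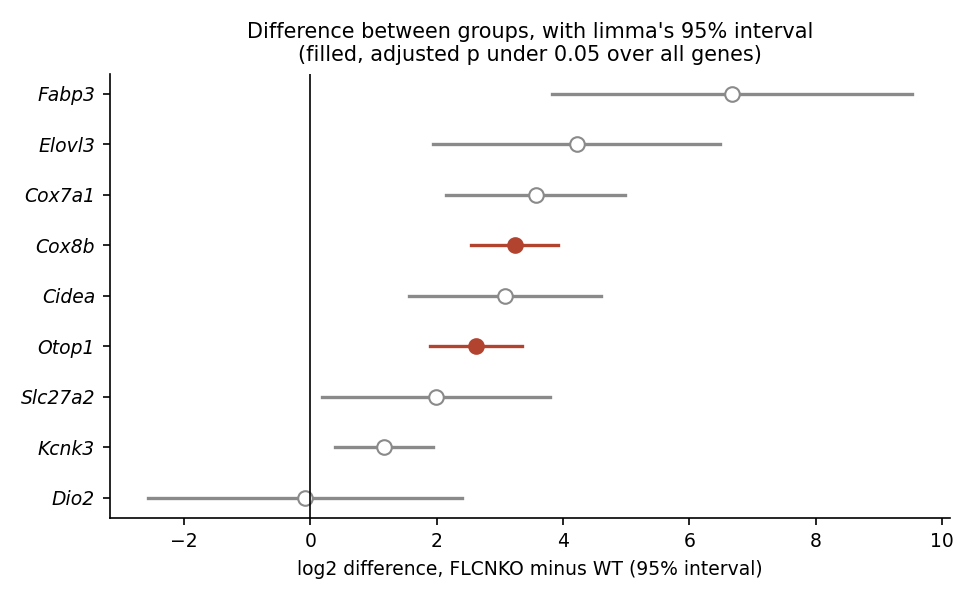
Log2 difference, FLCNKO minus WT, of the 9 effector genes with limma's 95% interval. Filled points have an adjusted p under 0.05 over all genes: Cox8b at 3.24 and Otop1 at 2.63 have the narrowest intervals, and Fabp3 at 6.67 has the widest.

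Among the genes of lipid handling, Cidea (ENSMUSG00000024526) had 16.64 and 14.97 in the FLCNKO-labelled libraries, against 13.13 and 12.31 in WT. The lower FLCNKO-labelled library stood 1.83 above the higher WT library. The Cidea log2 difference of 3.08 ± 0.59 (SE of limma, 2 libraries per group), or 8.47-fold, did not pass (limma adjusted p = 0.0711). Elovl3 (ENSMUSG00000038754), an elongase of very long saturated and monounsaturated fatty acids that brown fat makes in the cold, had 11.42 and 8.97 in the FLCNKO-labelled libraries and 6.60 and 5.36 in WT. Its groups did not overlap, but its FLCNKO-labelled libraries were 2.45 apart. The Elovl3 difference of 4.22 ± 0.89 did not pass (limma adjusted p = 0.0825).

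Fabp3 (ENSMUSG00000028773), the heart-type fatty acid binding protein gene, had the largest difference of the 9. Its values were 13.99 and 12.12 in the FLCNKO-labelled libraries, against 7.88 and 4.89 in WT. The groups were 4.24 apart at their nearest libraries. The log2 difference was 6.67 ± 1.12, about 102-fold, with a 95% interval of 3.82 to 9.53 (limma adjusted p = 0.0604). The WT values lie in the coarse low end of the tables: 4.89 was the 11th lowest distinct value in WT replicate 2 and was shared by 28 genes there. With every value under 8 raised to 8, the difference was 5.05 for Fabp3 and 2.20 for Elovl3. Of the 31-base stretches of Fabp3 transcripts, 37.3% also occur in other genes, Fabp3-ps1 and Gm16179, which were not analysed here, so the authors' counting could have split its reads. For Kcnk3 that share was 0.889% and for the other 7 members 0. Exons of Fabp3 also overlap those of Zcchc17 on the opposite strand, whose difference was 0.36 ± 0.13 (limma). Other opposite-strand overlaps are Gm10570 with Fabp3, Pitx3 with Elovl3, Gm26512 with Dio2 and Gm26697 with Slc27a2. Gm10570, Pitx3, Gm26512 and Gm26697 were not analysed here. Without the strand setting of the counting, reads of such pairs cannot be told apart.

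Slc27a2 (ENSMUSG00000027359), better known as a liver and kidney gene, had 11.31 and 9.70 in the FLCNKO-labelled libraries and 7.76 and 9.27 in WT. The gap between the groups was 0.43, smaller than the 1.61 between the FLCNKO-labelled libraries. The Slc27a2 log2 difference of 1.99 ± 0.71 did not pass (limma adjusted p = 0.192).

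The 2 genes of the respiratory chain encode the forms of cytochrome c oxidase subunits found in heart, skeletal muscle and brown fat. Cox8b (ENSMUSG00000025488) had 15.92 and 15.19 in the FLCNKO-labelled libraries, against 12.47 and 12.17 in WT. The libraries of each group lay close together and the groups 2.72 apart. Cox8b rose by 3.24 ± 0.27 log2 units, or 9.42-fold (limma adjusted p = 0.0336, 95% interval 2.55 to 3.92). Without 1 library it lay between 2.87 and 3.60 and did not pass (limma adjusted p between 0.0615 and 0.246). Cox7a1 (ENSMUSG00000074218) had 13.51 and 12.19 in the FLCNKO-labelled libraries and 9.84 and 8.72 in WT, again without overlap. The Cox7a1 difference was 3.57 ± 0.55 (11.8-fold; limma adjusted p = 0.055), and it passed in the fit restricted to genes with a mean of at least 8 (limma adjusted p = 0.0489).

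Dio2 (ENSMUSG00000007682) was the exception among the 9. It had 9.03 and 6.51 in the FLCNKO-labelled libraries, against 8.67 and 7.04 in WT, so the WT values lay inside the FLCNKO range. The Dio2 log2 difference was -0.08 ± 0.97 (limma adjusted p = 0.972). Its 95% interval ran from -2.57 to 2.41 and so includes differences as large as those of Slc27a2 and Kcnk3. Without 1 library it ranged from -1.34 (without FLCNKO-labelled replicate 1) to 1.18 (without FLCNKO-labelled replicate 2).

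Of the ion channels, Otop1 (ENSMUSG00000051596) had 13.30 and 12.61 in the FLCNKO-labelled libraries and 10.57 and 10.09 in WT. The groups stood 2.04 apart and each spanned less than 1 unit. Otop1 rose by 2.63 ± 0.28 log2 units, or 6.17-fold (limma adjusted p = 0.0404). Without 1 library it lay between 2.28 and 2.97 and did not pass (limma adjusted p between 0.0631 and 0.246). Kcnk3 (ENSMUSG00000049265), which sets the resting potential of many cells, had 12.82 and 11.96 in the FLCNKO-labelled libraries and 11.35 and 11.08 in WT. Among the 8 genes whose groups stood apart, its gap of 0.61 was smaller than all but that of Slc27a2, and its difference of 1.17 ± 0.30 did not pass (limma adjusted p = 0.11). Gm9899 overlaps exons of Kcnk3 on the opposite strand and had 6.86 and 6.51 in the FLCNKO-labelled libraries and 4.89 and 2.68 in WT, at the low end of the tables.

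The 9 genes also shared an order of libraries within each group. FLCNKO-labelled replicate 1 was above replicate 2 for 9 of 9, by 0.69 (Otop1) to 2.52 (Dio2), and for 48.6% of all genes. WT replicate 1 was above replicate 2 for 8 of 9, by 0.27 (Kcnk3) to 2.99 (Fabp3), and for 45.6% of all genes. Slc27a2 ran the other way in WT, by 1.50. Both orders held for 8 of the 9 and for 25.8% of all genes. The median absolute difference between libraries of a group was 0.25 for FLCNKO and 0.15 for WT over all genes, and each of the 9 exceeded both values. Centred on its own mean, the average member stood at 2.23 and 0.71 in the FLCNKO-labelled libraries and at -1.06 and -1.88 in WT. Cidea lay closest to this average, with a root mean square difference of 0.09 over the 4 libraries. Fabp3 was farthest, at 2.02, and Dio2 next, at 1.58. With 4 libraries no correlation is given.

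Skeletal muscle markers come from a tissue that uses Cox8b, Cox7a1 and Fabp3 as well. For 19 of 20 measured markers the order within both groups was the same, against 25.8% of all genes. The median of the muscle markers was 11.71 and 5.42 in the FLCNKO-labelled libraries, against 12.66 and 9.57 in WT. The log2 of their summed level was 16.53 and 13.85 in the FLCNKO-labelled libraries and 17.61 and 14.72 in WT. In FLCNKO-labelled replicate 2 Myh2, Tcap and Mylk2 were at the lowest value of that library, 2.37, while Acta1 had 13.32 and Myl1 11.79 there. Acta1 was the exception to the order, with 13.29 and 13.32 in the FLCNKO-labelled libraries and 14.50 and 12.21 in WT. The same library held 15.19 of Cox8b, 12.19 of Cox7a1 and 12.12 of Fabp3, above both WT libraries for each gene. Cox6a2, another muscle and heart oxidase subunit gene, had 7.05 and 3.94 in the FLCNKO-labelled libraries and 9.17 and 5.36 in WT. Ckmt2, a mitochondrial creatine kinase gene of muscle, had 8.41 and 2.37 in the FLCNKO-labelled libraries and 10.17 and 6.58 in WT. The groups overlapped for both Cox6a2 and Ckmt2. All 8 lymphocyte markers were also higher in replicate 1 than in replicate 2 of each group, against 25.8% of all genes. The log2 summed level of the lymphocyte markers was 11.41 and 9.96 in the FLCNKO-labelled libraries and 13.24 and 11.29 in WT. The part of muscle and lymphocytes in the order within groups, or in the differences between the groups, was not tested.

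**Figure D3:**
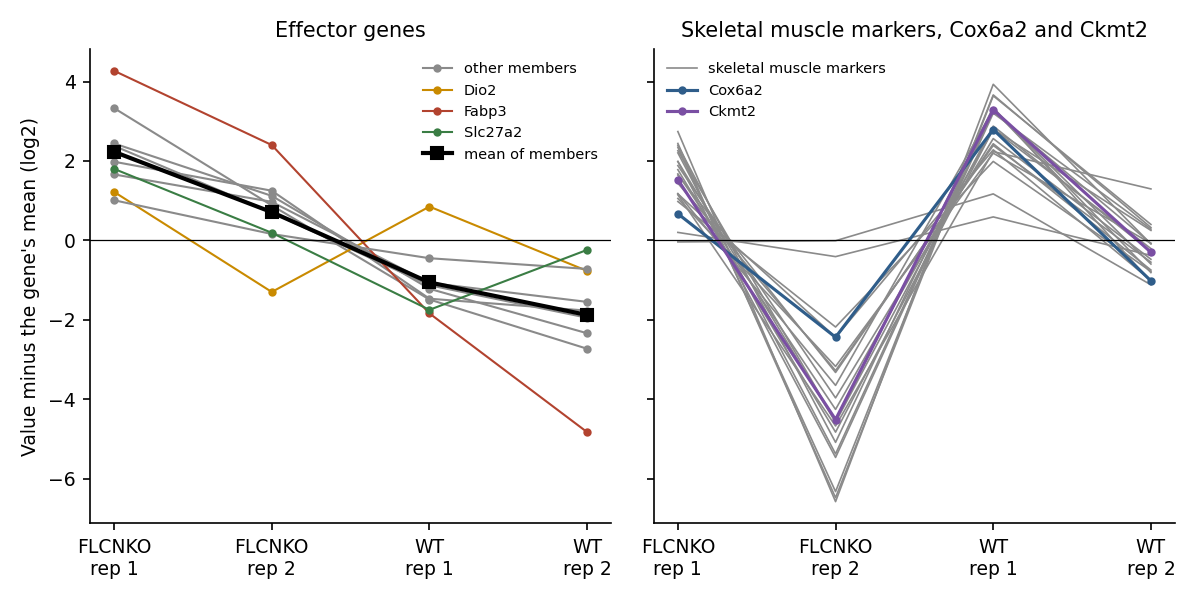
Log2 value minus the gene's own mean over the 4 libraries, for the 9 effector genes on the left and for 20 skeletal muscle markers, Cox6a2 and Ckmt2 on the right. Lines join the libraries of 1 gene, and the black line is the mean of the 9. Replicate 1 is above replicate 2 in both groups for 8 of 9 effector genes and for 19 of 20 muscle markers, against 25.8% of all genes. Both FLCNKO-labelled libraries are above both WT libraries for 8 effector genes and for 0 muscle markers.

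Other cell markers gave the setting of the tissue. White adipocyte markers such as Adipoq were abundant in all libraries, with medians of 17.24 and 17.74 in the FLCNKO-labelled libraries and 17.78 and 17.61 in WT. Of these 14 markers, 3 lay lower and 1 higher in both FLCNKO-labelled libraries than in both WT libraries. Over all 13677 genes, 3474 lay lower and 3998 higher. The 3 lower were Cfd (-1.13 ± 0.21), Adipoq (-0.46 ± 0.16) and Retn (-0.44 ± 0.16), and 0 of the 14 passed the test (limma). The median log2 difference of the 14 was -0.14. All 12 macrophage and all 10 fibroblast markers lay lower in both FLCNKO-labelled libraries than in both WT libraries, as did 3474 of all 13677 genes. The gaps of the macrophage markers Adgre1 and Cd14 were only -0.02 and -0.04. The median log2 differences were -0.85 for macrophages and -0.96 for fibroblasts. Of these markers 2 and 3 passed the test (limma), against 84 of all genes called lower. For 7 of 8 endothelial markers the groups overlapped, as for 6205 of all 13677 genes. The median log2 difference of the endothelial markers was -0.02. The summed levels of macrophage markers, as log2, were 17.16 and 16.87 against 17.99 and 17.76 in WT. Those of fibroblast markers were 19.22 and 19.15 against 20.27 and 20.12 in WT. In both lists 0 markers were at a library's lowest value. In whole tissue, fewer cells of a type and less RNA per cell cannot be told apart. The part of these cell types in the differences of the effector genes was not tested.

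Families of the members were compared with them, to see which relatives differed between the groups. Of 22 measured relatives, Elovl6 and Fabp5 rose and 0 fell (limma, adjusted p under 0.05), against 134 and 84 of all 13677 genes. The median log2 difference of the relatives was -0.18. Elovl6, which lengthens fatty acids made by fatty acid synthase, had 15.50 and 14.66 in the FLCNKO-labelled libraries and 12.21 and 12.75 in WT, a rise of 2.60 ± 0.33 (limma adjusted p = 0.0444). Fabp5, the epidermal-type carrier, had 13.93 and 13.74 in the FLCNKO-labelled libraries and 13.03 and 12.93 in WT, a rise of 0.85 ± 0.12 (limma adjusted p = 0.0484). Fabp4, the carrier typical of adipocytes, had 20.57 and 20.23 in the FLCNKO-labelled libraries and 20.27 and 20.23 in WT, at the shared top values of the tables.

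The broadly expressed oxidase forms differed less between the groups than Cox8b and Cox7a1 did, although the difference between forms was not tested. Cox8a had 14.73 and 14.65 in the FLCNKO-labelled libraries, against 14.50 and 14.51 in WT (0.19 ± 0.10, limma adjusted p = 0.355). Cox7a2 had 14.98 and 14.39 in the FLCNKO-labelled libraries and 13.82 and 13.84 in WT (0.86 ± 0.21, limma adjusted p = 0.104), and the supercomplex-assembly gene Cox7a2l had a difference of 0.13 ± 0.14.

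In the CIDE family, Cideb, a lipid droplet gene of liver, had 7.42 and 7.51 in the FLCNKO-labelled libraries and 4.42 and 4.89 in WT (2.81 ± 0.55, limma adjusted p = 0.0714). Every Cideb value lies under 8, in the coarse low end of the tables. Cidec, the form of white adipocytes, had 17.51 and 18.13 in the FLCNKO-labelled libraries and 18.13 in each WT library, with a difference of -0.31 ± 0.24. Slc27a1, the main fatty acid transport gene of white fat and muscle, had a difference of -0.01 ± 0.15. The 5 measured relatives of Kcnk3 had differences between -1.44 (Kcnk2) and -0.50 (Kcnk6), 0 of them past the threshold. Relatives of Dio2 and Otop1 were not analysed here.

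**Figure D4:**
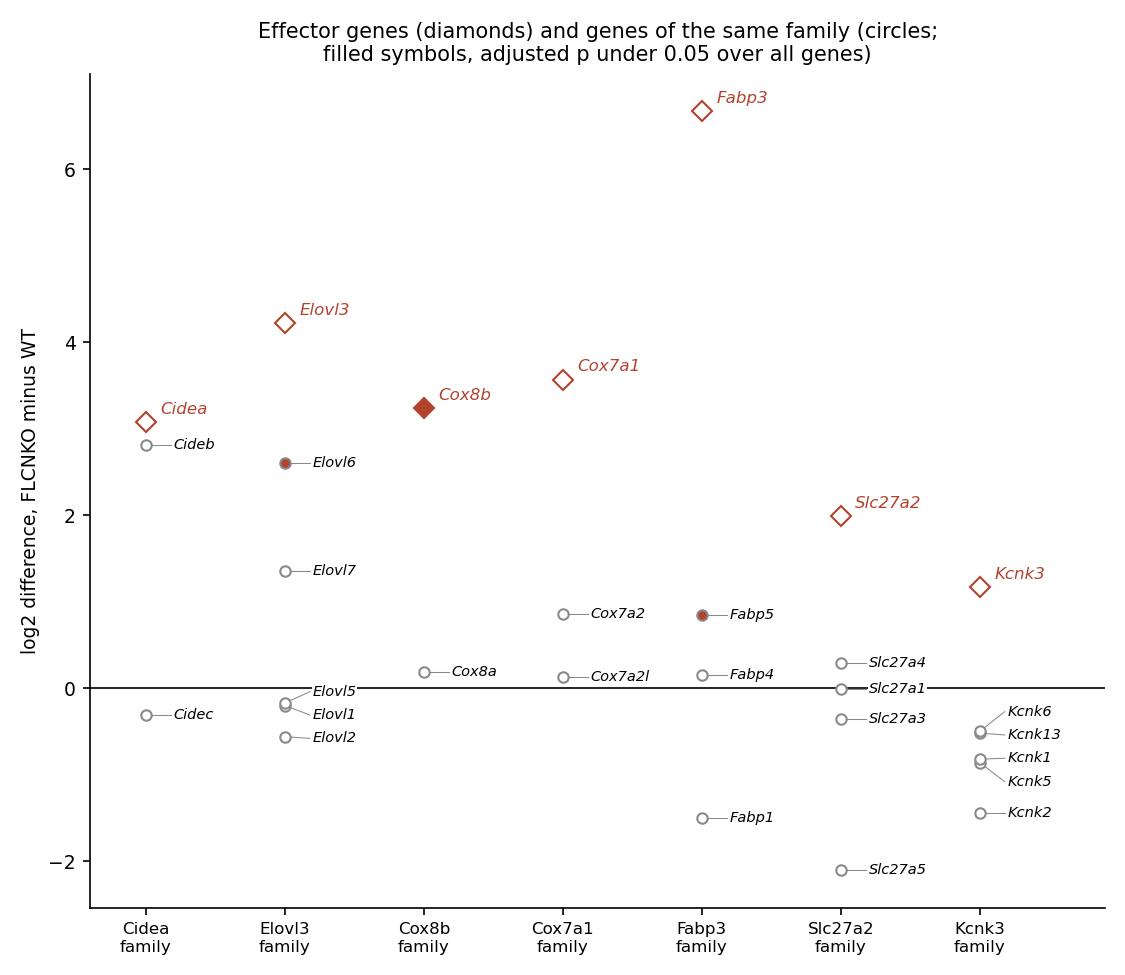
Log2 difference, FLCNKO minus WT, of 7 effector genes (diamonds) and of measured genes of the same families (circles). Filled symbols have an adjusted p under 0.05 over all genes: Cox8b, Elovl6 and Fabp5. Cox8b lies at 3.24, Elovl6 at 2.60 and Fabp5 at 0.85.

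Of 33 other measured genes of the brown and beige programme, 8 rose and 0 fell (limma, adjusted p under 0.05). Over all 13677 genes, 134 were called higher and 84 lower. At an unadjusted p under 0.05, 18 of the 33 were higher and 4 lower, against 1659 and 1402 of all genes. The median log2 difference of the 33 was 1.12, against 0.00 over all genes. The list was chosen with earlier results of these data known, so these counts and this median are no separate evidence. Ppara, a nuclear receptor that drives fatty acid oxidation, had 12.97 and 12.76 in the FLCNKO-labelled libraries and 9.65 and 9.88 in WT, a rise of 3.10 ± 0.15 (limma adjusted p = 0.0336). S100b, a secreted protein that promotes the innervation of thermogenic fat in mice, had 11.88 and 12.01 in the FLCNKO-labelled libraries and 9.03 and 8.72 in WT, a rise of 3.07 ± 0.16. Libraries of a group differed by at most 0.30 for these 2 genes. The other 6 that rose were the receptor gene Esrrg (2.73), the uncoupling protein gene Ucp3 (2.20), the lipid droplet gene Plin5 (1.99), the coactivator genes Ppargc1b (1.77) and Ppargc1a (1.12) and the thioesterase gene Acot2 (1.65).

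Ucp1, which encodes the uncoupling protein itself, had 13.79 and 10.06 in the FLCNKO-labelled libraries and 10.59 and 7.42 in WT. Its libraries kept the order of the effector genes within each group, with replicate 1 above replicate 2 by 3.73 in FLCNKO and 3.18 in WT, and its groups overlapped (2.92 ± 1.54, limma adjusted p = 0.336). Without 1 library the Ucp1 difference ranged from 1.05 (without FLCNKO-labelled replicate 1) to 4.78 (without FLCNKO-labelled replicate 2), with 4.50 without WT replicate 1 and 1.33 without WT replicate 2. Markers of the beige lineage did not pass the test: Tmem26 had a difference of -0.87 ± 0.29 (limma adjusted p = 0.172) and Epsti1 of -0.65 ± 0.20 (limma adjusted p = 0.148). Tbx1 had 1.50 ± 0.47 (limma adjusted p = 0.155), with every value under 8. The lineage regulators Prdm16 (0.02 ± 0.13) and Ebf2 (-0.67 ± 0.12, limma adjusted p = 0.0629) did not pass either. On the same list, P2rx5 (1.28 ± 0.39, limma adjusted p = 0.149) and Slc36a2 (0.36 ± 0.15, limma adjusted p = 0.246) did not pass. Both lay higher in both FLCNKO-labelled libraries than in both WT libraries.

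**Figure D5:**
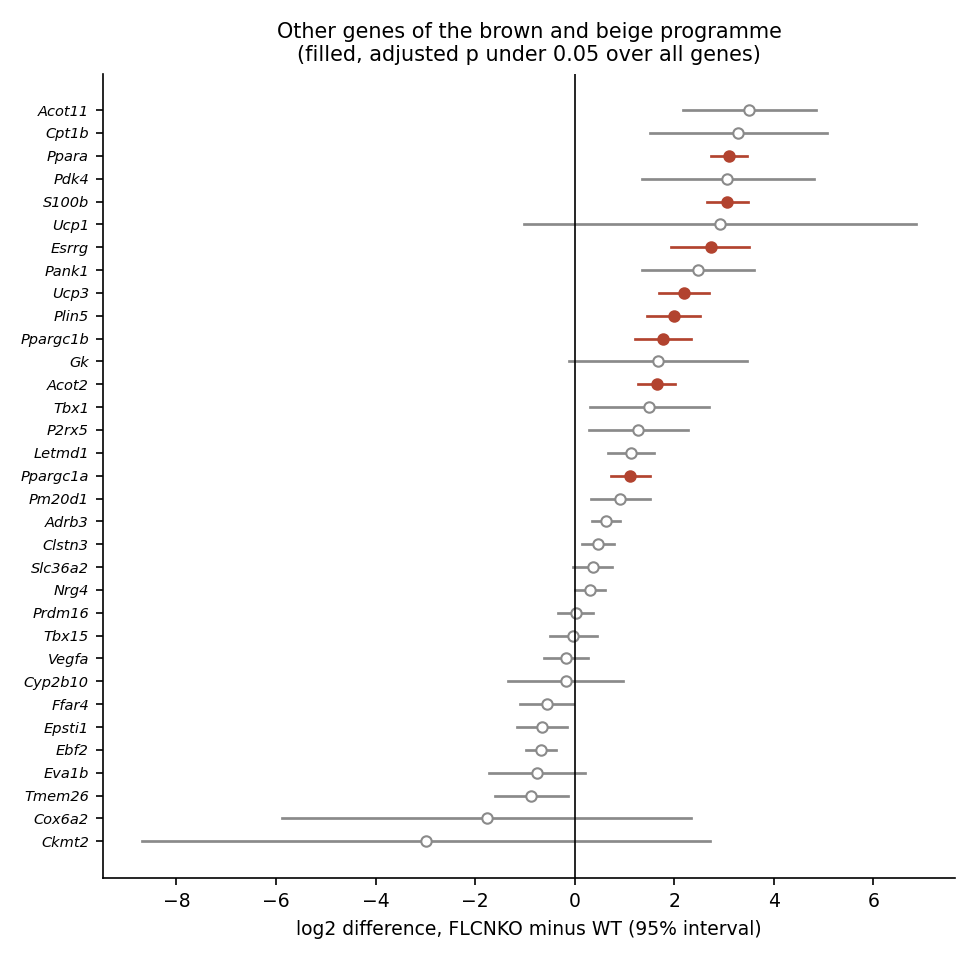
Log2 difference, FLCNKO minus WT, with limma's 95% interval for 33 other genes of the brown and beige programme. The 8 filled points have an adjusted p under 0.05 over all genes and lie between 1.12 (Ppargc1a) and 3.10 (Ppara), while Ucp1, Cox6a2 and Ckmt2 have the widest intervals.

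The genes outside the 9 with a profile most like their average were found among 11303 genes with a mean of at least 8, by the root mean square difference over the 4 centred values. Pdk4, a kinase that holds back the entry of pyruvate into the citric acid cycle, was closest at 0.23, with 18.17 and 16.60 in the FLCNKO-labelled libraries and 15.03 and 13.60 in WT. Next came the mitochondrial transfer RNA gene mt-Ti (0.30), the vesicle protein gene Syngr1 (0.33), Esrrg (0.35), the thioesterase gene Acot11 (0.35) and Mfsd4b1 (0.40). Of these 6, Esrrg and Mfsd4b1 passed the test, against 0.98% of all genes called higher. The 6 were picked for a profile that is itself higher in FLCNKO, so these passes are no separate evidence.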

How the data were processed

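RNA of inguinal white fat was extracted with Trizol and columns, per the labels' protocols. The authors deposited 1 table of log2 values per library; STAR, limma and the build mm9 are named per the submitters' processing notes, while the counting program, annotation and strand setting were not given in the sources used here. All libraries have a median of 10.76, and the highest white adipocyte marker value is 20.57 in each. The highest value over all libraries is 21.66. The values thus look forced to 1 distribution, which would hide any change common to most genes and tie the highest values together. Symbols were matched by Ensembl identifier for 13592 of 13677 genes.

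Every gene was fitted in limma 3.58.1 (R 4.3.3) on group alone, moderating variances towards a trend on mean level, with 2 residual and 3.09 prior degrees of freedom. Two-sided p-values were Benjamini-Hochberg adjusted across the 13677 genes, and genes under 0.05 were called. No filter was applied. The fit was tested on simulated data. The members, the gene lists, the motifs and the rule for named genes (members, listed relatives, listed genes past the threshold with Ucp1, and the 6 nearest profiles) were chosen with earlier results of these data known. Mfsd4b1 and the other nearest genes follow that rule. Cox6a2, Ckmt2, Prdm16, Ebf2, Tmem26, Epsti1, Tbx1, P2rx5, Slc36a2, overlapping genes and single markers fall outside it, as do the values of Fabp1 and Slc27a5. Those outside the rule were chosen after their values were seen. Alternatives were a filter, other scalings, other variance settings, a replicate block, array weights and leaving out each library. Figures were drawn with matplotlib 3.10.9.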

Additional observations from a re-analysis of the deposited data

How the results depend on the processing

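The log2 differences of the 8 members above 0 kept their sign under all 13 alternatives, while that of Dio2 turned to 0.18 with values under 8 raised to 8 (an alternative chosen after seeing the data), and ranged from -1.34 to 1.18 when single libraries were left out, 0.73 without WT replicate 1. The median of the members lay between 2.28 and 3.60 without single libraries. Without the variance trend limma called 0 genes higher, 0 lower, 0 members, 0 of the brown and beige list and 0 relatives, with 2702 genes and 7 members at an unadjusted p under 0.05. Leaving out any 1 library likewise gave 0 calls in each of these, with 1 residual degree of freedom in place of 2 and between 1395 and 3455 genes at an unadjusted p under 0.05. With values under 8 raised to 8, 6 genes were called higher, 3 lower, and 0 members, 0 of the list and 0 relatives, with 2646 genes and 5 members at an unadjusted p under 0.05. By construction 1752 genes are then constant. The filter on a mean of at least 8 called 138 genes lower and robust moderation 143, against 84. The replicate numbers are not stated to pair libraries, and across genes the within-group differences of FLCNKO and WT had r = 0.36. With the replicate block limma called 401 genes higher and 441 lower, 15 of the brown and beige list (14 higher, 1 lower) and 7 members, all but Dio2 and Slc27a2. Ucp1 also passed with the replicate block (2.92 ± 0.18, limma adjusted p = 0.0145). The causes of these changes were not tested. The depth is unknown, and the low end of the tables limits genes such as Fabp3, Elovl3, Cideb and Tbx1.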
